A study of Mus musculus with 36 samples.

Results

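A set of 9 genes of retinoid metabolism was followed in visceral white adipose tissue (visWAT) and liver of mice with and without Mlkl in their adipocytes, on normal chow diet (NCD) or high-fat diet (HFD). The genes were taken by their symbols from the deposited expression table, which lists 56748 genes, and all 9 were found, each as 1 row: Rbp4, Lrat, Bco1, Rdh16, Dhrs3, Aldh1a1, Aldh1a2, Aldh1a3 and Aldh1a7.

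Vitamin A circulates as retinol bound to RBP4, which the liver secretes and adipocytes also make. Retinol is stored as retinyl esters, which LRAT forms, mainly in hepatic stellate cells, and it can also come from beta-carotene, which BCO1 cleaves to retinaldehyde. Retinol dehydrogenases such as RDH16 oxidize retinol to retinaldehyde, and DHRS3 reduces retinaldehyde back to retinol. The retinaldehyde dehydrogenases ALDH1A1, ALDH1A2 and ALDH1A3 make retinoic acid, the ligand of the nuclear retinoic acid receptors. ALDH1A7 is a rodent enzyme closely related to ALDH1A1 and is not known as a major retinaldehyde dehydrogenase. In adipocytes, retinoids are known to influence differentiation and lipid storage.

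Male mice on the C57BL/6J background carried loxP-flanked Mlkl, the gene of a pseudokinase that executes necroptosis. MlklAdi-KO mice also carried Adipo-Cre, which acts in mature adipocytes, so that the other cells of visWAT kept Mlkl, while WT mice were littermates with the same floxed alleles and no Cre. Per the study's methods, the mice were 16 weeks old at the start and ate NCD or HFD for 16 weeks. visWAT was epididymal adipose tissue. Each mouse gave 1 visWAT and 1 liver library, so that in either tissue there were 4 WT mice on NCD (165, 180, 182 and 183), 4 MlklAdi-KO mice on NCD (166, 179, 197 and 199), 5 WT mice on HFD (154, 155, 161, 162 and 164) and 5 MlklAdi-KO mice on HFD (151, 152, 153, 156 and 157). Values for single mice are given in this order throughout. They are FPKM, fragments scaled by gene length and library size, and changes are differences of the mean log2(FPKM + 1), which understates the change of genes at low levels.

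The 36 libraries held 20875463 to 30322171 reads on genes. Mlkl in visWAT lay between 2.32 and 2.72 FPKM in MlklAdi-KO mice and between 4.58 and 6.28 FPKM in WT mice on HFD. On NCD it was 1.96 to 2.49 FPKM in MlklAdi-KO mice, and 5.11, 4.63, 2.29 and 3.91 FPKM in WT mice. The visWAT library of mouse 182, labelled WT, was thus at the MlklAdi-KO level. In the visWAT library of mouse 183, 17.5% of the reads came from 5 genes of the seminal vesicle, an organ that lies beside the epididymal fat. Each visWAT result that uses NCD WT mice was therefore also computed without these libraries. The visWAT library of mouse 156 held 460 FPKM of the hepatocyte gene Alb, against 53.2 FPKM or less in the others. All 6 mature adipocyte markers were detected in every visWAT group, with summed levels of 3803 to 7658 FPKM, and all 5 hepatocyte markers in every liver group, with 37967 to 60833 FPKM. In bulk tissue, fewer cells of a type and less RNA per cell cannot be told apart.

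Aldh1a7 and Rdh16 have close relatives, and sequence is shown for these because reads can only be assigned to a copy where the copies differ. Positions are on mm39 (GRCm39), and the coding sequences are those of the GENCODE annotation of that build. Aldh1a1 (ENSMUSG00000053279, chr19:20470079-20620829, plus strand) and Aldh1a7 (ENSMUSG00000024747, chr19:20670317-20704926, minus strand) are protein-coding neighbours. Their coding sequences, of 1506 bases each, were 91.6% identical, the longest identical run was 100 bases, and none of the 150-base windows of a read's length was shared. The stretch of 90 coding bases with the most mismatches, coding bases 310 to 399 in coding exons 3 and 4, is shown from 5′ to 3′, with its 19 mismatches in capitals. It spans an intron in both genes, at chr19:20595382-20597419 on the plus strand and chr19:20696593-20699644 on the minus strand.
Aldh1a1: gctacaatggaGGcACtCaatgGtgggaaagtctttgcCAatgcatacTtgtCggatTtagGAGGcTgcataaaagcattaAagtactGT
Aldh1a7: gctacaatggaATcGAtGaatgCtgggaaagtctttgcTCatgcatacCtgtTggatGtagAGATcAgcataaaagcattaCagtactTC
The other pairs among the 4 ALDH1A genes were 65.6% to 67.9% identical.

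Rdh16 (ENSMUSG00000069456, chr10:127637021-127682434, plus strand) stands in a cluster of related genes on chromosome 10. Its 954 coding bases were 96.3% identical to those of Rdh9 and 96.8% to those of Rdh16f1, with 80 shared windows of 150 bases in either pair, so that some reads fit both copies and the values of Rdh16 are uncertain to that extent. The 90 coding bases in which Rdh16 and Rdh9 differed most, coding bases 435 to 524 in coding exon 2, held 11 mismatches, shown in capitals. They lie at chr10:127647044-127647133 in Rdh16 and at chr10:127624598-127624687 in Rdh9, both on the plus strand.
Rdh16: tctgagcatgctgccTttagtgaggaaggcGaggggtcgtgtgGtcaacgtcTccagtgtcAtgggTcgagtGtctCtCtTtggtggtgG
Rdh9: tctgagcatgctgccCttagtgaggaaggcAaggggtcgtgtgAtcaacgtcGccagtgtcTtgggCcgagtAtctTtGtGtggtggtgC
In liver, Rdh9 was counted at 2.21 to 6.65 FPKM and Rdh16f1 at 0.0224 FPKM or less, against 12.6 to 66.2 FPKM of Rdh16.

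The remaining genes, all protein-coding, are Rbp4 (ENSMUSG00000024990, chr19:38105077-38113729, minus strand), Lrat (ENSMUSG00000028003, chr3:82799886-82811280, minus strand), Bco1 (ENSMUSG00000031845, chr8:117822593-117860459, plus strand), Dhrs3 (ENSMUSG00000066026, chr4:144619397-144654779, plus strand), Aldh1a2 (ENSMUSG00000013584, chr9:71123071-71203525, plus strand) and Aldh1a3 (ENSMUSG00000015134, chr7:66040638-66077265, minus strand). In the annotation, Rbp4 overlaps Ffar4 on the opposite strand, and Rdh16 and Bco1 each hold a pseudogene on their own strand, Rdh18-ps and Gm20694. Whether reads were counted by strand is not given in the sources used here, so reads in these overlaps are of uncertain origin.

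The tissues differed in which of the 9 genes they expressed. Lrat, Bco1 and Rdh16 were expressed mostly in liver: Lrat was at 1.503 to 5.15 FPKM in liver and at most 0.127 FPKM in visWAT, Bco1 at 2.10 to 4.69 FPKM against at most 0.27 FPKM, and Rdh16 at 12.6 to 66.2 FPKM against at most 1.09 FPKM. Aldh1a2 and Aldh1a3 were the reverse, with 2.43 to 7.34 FPKM and 2.40 to 9.90 FPKM in visWAT against at most 0.424 and 0.314 FPKM in liver. Rbp4 and Aldh1a1 were well expressed in both tissues and higher in liver, where Rbp4 was between 2097 and 3822 FPKM against 121 to 623 FPKM in visWAT, and Aldh1a1 between 289 and 482 FPKM against 19.5 to 43.0 FPKM. Dhrs3, at 48.2 to 61.7 FPKM in liver and 42.3 to 104 FPKM in visWAT, and Aldh1a7, at 92.4 to 264 FPKM and 32.4 to 244 FPKM, overlapped between the tissues. In reads, Dhrs3 was at 2287 to 3532 in liver and 3370 to 12313 in visWAT.

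Differences were tested with limma, a linear model fitted to all genes at once, with Benjamini-Hochberg adjustment over all genes tested and a threshold of 0.05 for the adjusted p. All 9 genes differed between visWAT and liver at an adjusted p under 0.05 in limma, with 3 higher and 6 lower in visWAT, where 87% of all genes tested passed in either direction, 42.5% higher and 44.5% lower. The values of 7 of the 9 did not overlap between the 18 libraries of each tissue, as was so for 42.4% of all genes. The log2 differences, visWAT minus liver, were 2.51 for Aldh1a3 (SE 0.09, adjusted p = 2.63e-24 in limma), 2.44 for Aldh1a2 (SE 0.08, adjusted p = 1.07e-24 in limma) and 0.35 for Dhrs3 (SE 0.09, adjusted p = 0.000789 in limma). They were −5.03 for Rdh16, −3.55 for Rbp4, −3.50 for Aldh1a1, −1.86 for Lrat, −1.78 for Bco1 and −1.43 for Aldh1a7, with SE of 0.05 to 0.16. A rescaling of each library to the same FPKM sum, called the TPM scale below, moved the median of all genes by 0.73 on the log2 scale. It moved the split of calls from 6227 higher and 6525 lower to 10589 and 2789. On the TPM scale Aldh1a7 differed by −0.46 (adjusted p = 0.0118 in limma). Without the visWAT libraries of mice 182 and 183, that scale gave Dhrs3 a difference of 1.48 (adjusted p = 1.015e-16 in limma). The size of the Dhrs3 difference thus depended on the scaling. Tissue and RNA extraction kit cannot be told apart, since a lysis reagent was used for visWAT (TRIzol in the labels, QIAzol in the study's methods) and a column kit for liver.

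**Figure D1:**
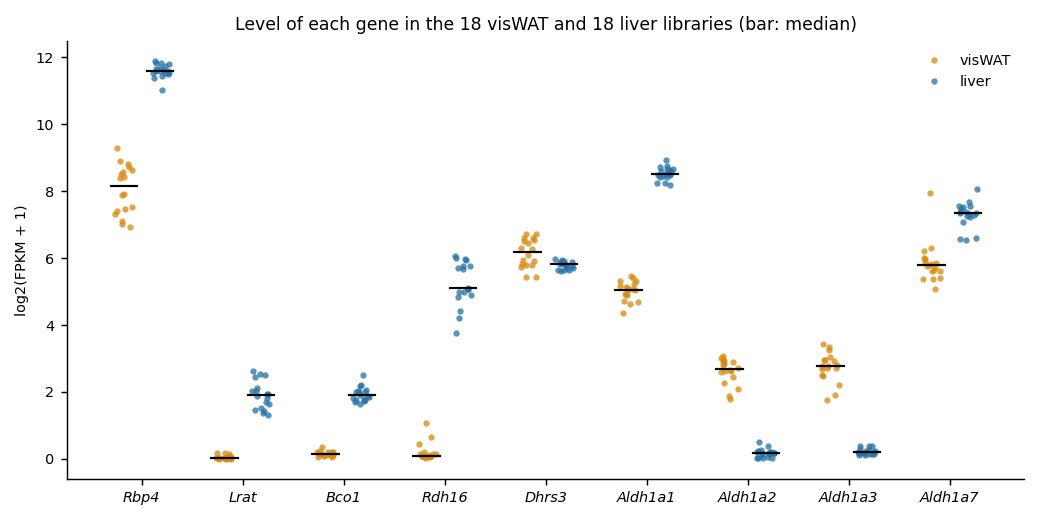
Level of the 9 genes on the log2(FPKM + 1) scale in 18 visWAT libraries (orange) and 18 liver libraries (blue), 1 point per mouse, with a bar at the median. Rdh16, Lrat and Bco1 sit near 0 in visWAT, Aldh1a2 and Aldh1a3 near 0 in liver, and the points of Dhrs3 and Aldh1a7 overlap between tissues.

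Among the 4 ALDH1A genes, summed per mouse, the makeup differed by tissue. In liver the sum was 381 to 638 FPKM and consisted almost wholly of Aldh1a1, with group medians of 65.4% to 75.7%, and Aldh1a7. In visWAT the sum was 79.8 to 279 FPKM. Aldh1a7 had the largest median share of FPKM, with 59.1% in NCD WT, 53.3% in NCD MlklAdi-KO, 54.2% in HFD WT and 55.6% in HFD MlklAdi-KO mice. In mouse 151 its share was 39.8%, against 40.3% for Aldh1a1. FPKM depend on the gene lengths used, 2066 bases for Aldh1a7 and 4937 bases for Aldh1a1. In reads, Aldh1a1 had the higher visWAT medians, at 4987, 5913, 4429 and 5315 in these groups. Those of Aldh1a7 were 4287, 3734, 3426 and 3945 reads. Aldh1a2 made up 3.06%, 5.21%, 6.53% and 6.79% of the visWAT sum in these groups, and Aldh1a3 3.06%, 5.19%, 7.66% and 7.05%. The share of Aldh1a7 reached 87.5% in the visWAT and 46.6% in the liver of mouse 182, the highest of either tissue. These shares are descriptions without a test, and the genes of a share are not independent of each other.

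**Figure D2:**
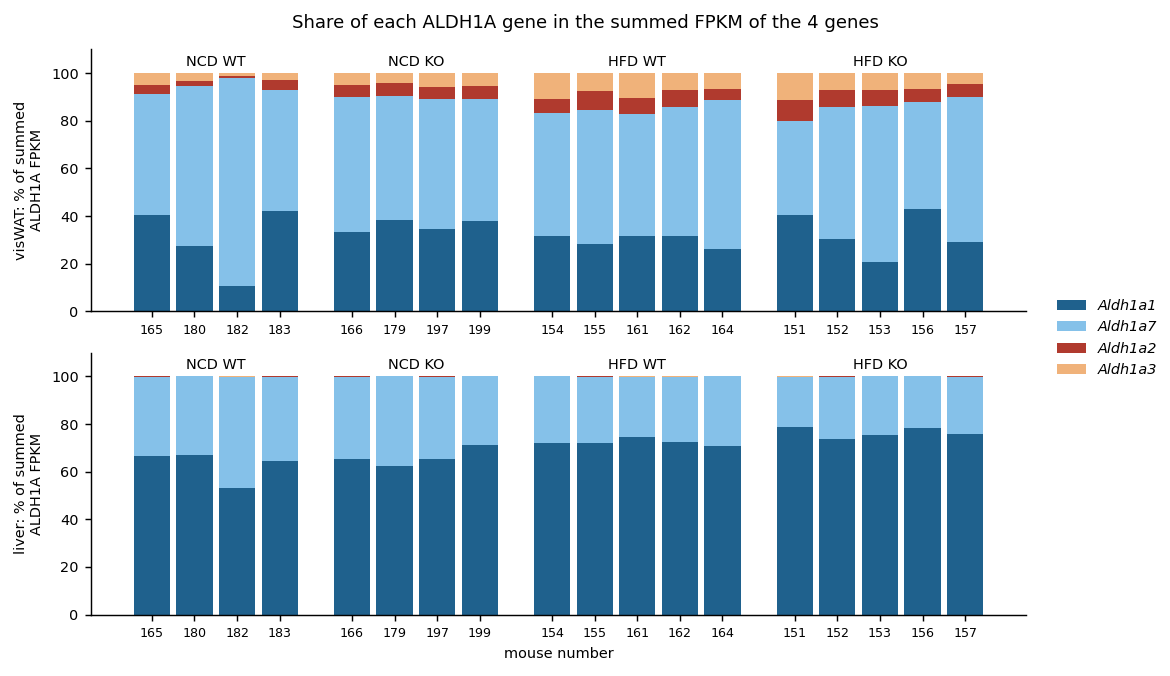
Share of each ALDH1A gene in the summed FPKM of the 4 genes, in percent, 1 stacked bar per mouse, for visWAT and liver by group. Aldh1a1 and Aldh1a7 fill the liver bars, while Aldh1a2 and Aldh1a3 are visible in visWAT and Aldh1a7 fills 87.5% of the visWAT bar of mouse 182.

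For comparisons within a tissue, genes with a mean of at least 0.5 FPKM in the mice compared were tested. In visWAT 6 of the 9 passed this filter (Rbp4, Dhrs3 and the 4 ALDH1A genes), and in liver 7 (all but Aldh1a2 and Aldh1a3). The genes below the filter were at 0 to 22 reads for Lrat and 3 to 21 reads for Bco1 in visWAT, at 0.0119 to 1.09 FPKM for Rdh16 in visWAT, and at 1 to 18 and 7 to 30 reads for Aldh1a2 and Aldh1a3 in liver. These were not tested between the groups.

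The diet went with most of the changes. In visWAT of WT mice 4 of 6 genes changed with HFD at an adjusted p under 0.05 in limma, 3 higher (Dhrs3, Aldh1a2 and Aldh1a3) and 1 lower (Rbp4), where 37.8% of all genes tested changed, 21.9% higher and 15.8% lower. In visWAT of MlklAdi-KO mice 1 of 6 changed, Dhrs3, which rose, against 43.7% of all genes and 23.3% in that direction. In liver 4 of 7 changed in WT mice (Rdh16, Dhrs3 and Aldh1a7 lower, Aldh1a1 higher) against 25.3% of all genes, 12.1% lower and 13.2% higher, and 2 of 7 in MlklAdi-KO mice (Rdh16 and Aldh1a7, both lower) against 22.2%, 10.3% lower. edgeR called 5, 1, 5 and 2 genes in these 4 comparisons, against 41.4%, 44.9%, 26.5% and 23.7% of all genes, and DESeq2 called 6, 1, 5 and 3, against 44.4%, 48.5%, 29.3% and 26.8%. The values of 4, 1, 5 and 2 genes did not overlap between the diets, as was so for 33.4%, 38.4%, 24.8% and 21.5% of all genes. In visWAT of MlklAdi-KO mice the share of called members was below that of all genes. The shares are a description.

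No gene of the set differed by genotype at an adjusted p under 0.05 in limma. Of the 6 genes in visWAT, 0 passed on HFD, where 0.0215% of all genes did (1 gene at an unadjusted p under 0.05, 0 in edgeR, 1 in DESeq2 against 1.15% of all genes), and 0 on NCD, where 0% did (2 genes unadjusted, 0 in edgeR, 1 in DESeq2 against 0.0569% of all genes). Of the 7 in liver, 0 passed on HFD, against 0.197% of all genes (2 unadjusted, 0 in edgeR and DESeq2), and 0 on NCD, against 0.00758% (0 unadjusted, 0 in edgeR and DESeq2). The difference between the diet responses of the genotypes, tested as the interaction of genotype and diet over the 18 mice of a tissue, also passed for 0 genes, against 0% of all genes in visWAT (2 unadjusted) and 0.0151% in liver (0 unadjusted), with 0 in edgeR and DESeq2 in both tissues. The sections on single genes give the intervals of these differences.

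**Figure D3:**
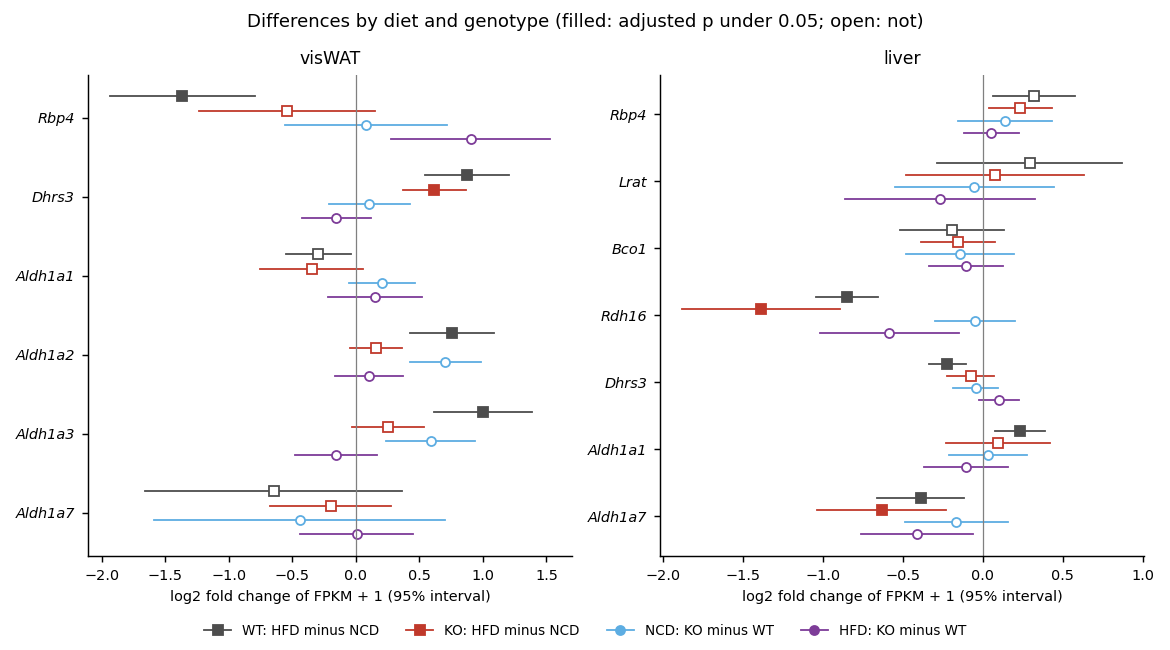
Difference in mean log2(FPKM + 1) with its 95% interval for each tested gene in 4 comparisons per tissue: HFD minus NCD in WT and in MlklAdi-KO mice, and MlklAdi-KO minus WT on each diet. Filled symbols have an adjusted p under 0.05 in limma, and all filled symbols belong to the diet comparisons.

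Rbp4, the carrier of retinol in plasma, was lower in visWAT of WT mice on HFD. It stood at 337, 382, 623 and 235 FPKM in NCD WT mice and at 137, 121, 129, 175 and 160 FPKM in HFD WT mice. Every HFD WT mouse was below every NCD WT mouse. The mean was 394 ± 165 FPKM (SD, n = 4) on NCD and 144 ± 22.5 FPKM (SD, n = 5) on HFD, and the log2 change was −1.37 (SE 0.25, 95% interval −1.94 to −0.80, adjusted p = 0.00243 in limma). On the TPM scale the change was −0.89 (adjusted p = 0.104 in limma), and on that scale without mice 182 and 183 it was −1.19 (adjusted p = 0.000493 in limma). Without these mice on the FPKM scale it was −1.32 (adjusted p = 0.000319 in limma). The TPM scale moved the median of all genes in this comparison by 0.35 with all mice, and the split of all calls from 3108 higher and 2239 lower to 3911 and 226, and it moved the median by 0.09 without mice 182 and 183.

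In MlklAdi-KO mice Rbp4 was at 448, 343, 363 and 419 FPKM in visWAT on NCD and at 240, 182, 168, 394 and 480 FPKM on HFD. Mice 156 and 157 were within or above the NCD range, and the other HFD mice were below it. The diet difference was −0.54 (95% interval −1.24 to 0.15, adjusted p = 0.182 in limma), and without mouse 157 it was −0.75 and passed (adjusted p = 0.0438 in limma). On HFD, Rbp4 averaged 293 ± 138 FPKM in MlklAdi-KO mice against 144 ± 22.5 FPKM in WT mice (SD, n = 5), and the groups overlapped at MlklAdi-KO mouse 153 (168 FPKM) and WT mouse 162 (175 FPKM). The log2 difference was 0.90 (SE 0.28, 95% interval 0.28 to 1.53), with an unadjusted p of 0.00923 and an adjusted p of 0.221 in limma. DESeq2 gave 1.03 (adjusted p = 0.0300), and limma without mouse 156 gave 0.76 (adjusted p = 0.398) and without mouse 157 gave 0.69 (adjusted p = 0.42). On NCD the genotypes differed by 0.08 (95% interval −0.56 to 0.71, adjusted p = 0.966 in limma), and the interaction was 0.82 (95% interval −0.06 to 1.71, adjusted p = 0.402 in limma).

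The mice that were high for Rbp4 on HFD also had the lowest macrophage markers. The sum of the 6 macrophage markers (Adgre1, Cd68, Itgax, Trem2, Gpnmb and Lyz2), all of which were detected in each group, was 154 to 245 FPKM in NCD WT, 208 to 372 FPKM in NCD MlklAdi-KO and 1637 to 2415 FPKM in HFD WT mice. In HFD MlklAdi-KO mice it was 1345, 2050, 2176, 670 and 599 FPKM, lowest in mice 156 and 157. The sum of the 6 mature adipocyte markers (Adipoq, Plin1, Cidec, Lep, Pparg and Fabp4) was 7206, 5014, 4705, 7148 and 7658 FPKM in the same mice and 4234 to 5023 FPKM in HFD WT mice. Alb, a gene of hepatocytes, was at 460 FPKM in the visWAT of mouse 156 and at 8.72 FPKM in that of mouse 157. The part of these differences in the Rbp4 values was not tested.

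In liver Rbp4 was at 2782, 2950, 2097 and 2870 FPKM in NCD WT mice and 3538, 3092, 3155, 3627 and 3190 FPKM in HFD WT mice. The HFD mice were all above the NCD mice, and the difference of 0.32 (95% interval 0.06 to 0.58) had an adjusted p of 0.0692 in limma, 0.0383 in edgeR, 0.0122 in DESeq2 and 0.0131 on the TPM scale. MlklAdi-KO mice had 2653, 2981, 3099 and 2969 FPKM on NCD and 3822, 3067, 3438, 3605 and 3297 FPKM on HFD. Their diet difference was 0.23 (95% interval 0.04 to 0.43, adjusted p = 0.0842 in limma), with an adjusted p of 0.0215 in DESeq2, 0.0449 on the TPM scale and 0.05 in limma without mouse 152. The genotype differences were 0.05 on HFD (95% interval −0.12 to 0.22, adjusted p = 0.835 in limma) and 0.14 on NCD (95% interval −0.16 to 0.44, adjusted p = 0.996 in limma). The WT diet difference thus had opposite signs in visWAT and liver. In limma on FPKM only that in visWAT passed. On the TPM scale with all mice only that in liver passed (adjusted p = 0.104 in visWAT and 0.0131 in liver, in limma). Both passed in edgeR and in DESeq2. The interaction of diet with tissue was not tested.

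Lrat, which esterifies retinol for storage, was low in liver and varied widely between mice of 1 group. It was at 2.26, 2.13, 4.43 and 1.88 FPKM in NCD WT, 2.56, 2.66, 3.08 and 1.59 FPKM in NCD MlklAdi-KO, 4.82, 3.30, 3.07, 1.69 and 4.72 FPKM in HFD WT, and 1.73, 5.15, 2.83, 1.503 and 2.86 FPKM in HFD MlklAdi-KO mice. All 4 groups overlapped. The differences were 0.29 for HFD minus NCD in WT (95% interval −0.28 to 0.87, adjusted p = 0.445 in limma) and −0.27 for MlklAdi-KO minus WT on HFD (95% interval −0.86 to 0.33, adjusted p = 0.733 in limma). The interaction was −0.22 (95% interval −1.02 to 0.59, adjusted p = 0.989 in limma). The sum of 8 hepatic stellate cell markers, all detected, was 73.0 to 122 FPKM in NCD WT, 78.5 to 97.4 FPKM in NCD MlklAdi-KO, 98.7 to 124 FPKM in HFD WT and 70.02 to 99.4 FPKM in HFD MlklAdi-KO liver. The mouse highest for Lrat had the highest sum in each group (182, 197, 154 and 152). The mouse lowest for Lrat (183, 199, 162 and 156) had the lowest sum in no group. In visWAT, where Lrat was at most 0.127 FPKM, the sum was 80.6 to 197 FPKM, so it does not mark stellate cells alone. The part of these in the Lrat values was not tested.

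Bco1, which cleaves beta-carotene, passed no test by diet or genotype in liver. It was at 2.69, 3.003, 4.69 and 3.02 FPKM in NCD WT, 2.97, 3.57, 2.58 and 2.48 FPKM in NCD MlklAdi-KO, 2.75, 2.24, 2.29, 3.48 and 3.14 FPKM in HFD WT, and 2.38, 2.40, 2.10, 2.55 and 3.08 FPKM in HFD MlklAdi-KO mice. Mouse 182 was the highest of all. The differences were −0.19 for the diet in WT (95% interval −0.52 to 0.13, adjusted p = 0.368 in limma), −0.15 for the diet in MlklAdi-KO (adjusted p = 0.327 in limma), and −0.10 and −0.14 for the genotype on HFD and NCD (95% intervals −0.34 to 0.13 and −0.48 to 0.20).

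Rdh16, a retinol dehydrogenase, had the largest diet change of the 9 genes in liver, subject to the shared reads named above. NCD WT mice were at 66.2, 53.4, 50.8 and 63.1 FPKM and HFD WT mice at 31.0, 28.9, 32.9, 33.5 and 32.6 FPKM. NCD MlklAdi-KO mice were at 61.4, 53.4, 60.4 and 49.8 FPKM and HFD MlklAdi-KO mice at 12.6, 27.7, 30.7, 20.6 and 17.7 FPKM. Every HFD mouse was below every NCD mouse.

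The mean of Rdh16 fell from 58.4 ± 7.44 FPKM (SD, n = 4) to 31.8 ± 1.86 FPKM (SD, n = 5) in WT mice, a log2 change of −0.85 (SE 0.09, 95% interval −1.04 to −0.66, adjusted p = 0.000203 in limma). In MlklAdi-KO mice it fell from 56.3 ± 5.6 FPKM (SD, n = 4) to 21.8 ± 7.38 FPKM (SD, n = 5), a log2 change of −1.39 (SE 0.22, 95% interval −1.88 to −0.89, adjusted p = 0.0023 in limma). The sum of the 5 hepatocyte markers (Alb, Apoa1, Tat, Cyp2e1 and Serpina1c) was also lower on HFD without overlap, at 51217 to 58378 FPKM in NCD WT and 37967 to 44155 FPKM in HFD WT mice, and at 54616 to 60833 FPKM in NCD MlklAdi-KO and 41907 to 51353 FPKM in HFD MlklAdi-KO mice. Its part in the falls of Rdh16, Aldh1a7 and Dhrs3 in liver was not tested. In the same WT livers Aldh1a1 and Rbp4 were higher on HFD without overlap, Rbp4 at an adjusted p of 0.0692 in limma. Both changes of Rdh16 kept an adjusted p under 0.05 without any single mouse and under each other setting tried. On HFD the genotypes differed by −0.58 (95% interval −1.02 to −0.15), with an unadjusted p of 0.0135 and an adjusted p of 0.281 in limma. On NCD they differed by −0.05 (95% interval −0.30 to 0.20, adjusted p = 0.996 in limma). The interaction was −0.54 (95% interval −1.07 to 0.00, unadjusted p = 0.0506, adjusted p = 0.818 in limma). Rdh9, whose reads can be shared with Rdh16, was lower on HFD in WT mice as well, by 0.55 on the log2 scale at 3.74 against 5.80 FPKM (adjusted p = 0.0393 in limma, and 0.0633 without mouse 162, 0.0849 without 164, 0.0703 without 165, 0.0591 without 180, 0.0678 without 182 and 0.0929 without 183).

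Dhrs3, which returns retinaldehyde to retinol and is known as a retinoic acid target, rose with HFD in visWAT of both genotypes. It was at 60.1, 58.9, 42.5 and 42.3 FPKM in NCD WT and 77.3, 104, 104, 89.6 and 92.3 FPKM in HFD WT mice, with no overlap. It was at 52.1, 54.6, 55.1 and 54.8 FPKM in NCD MlklAdi-KO and 86.4, 96.8, 95.6, 75.6 and 67.2 FPKM in HFD MlklAdi-KO mice, again with no overlap. Mice 182 and 183 were the lowest NCD WT mice, and mice 156 and 157 the lowest on HFD.

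The mean of Dhrs3 rose from 50.9 ± 9.88 FPKM (SD, n = 4) to 93.6 ± 11.4 FPKM (SD, n = 5) in WT mice, a log2 change of 0.88 (SE 0.15, 95% interval 0.55 to 1.21, adjusted p = 0.00133 in limma), and of 0.64 without mice 182 and 183 (adjusted p = 0.00356 in limma). In MlklAdi-KO mice it rose from 54.2 ± 1.4 FPKM (SD, n = 4) to 84.3 ± 12.8 FPKM (SD, n = 5), a change of 0.62 (SE 0.11, 95% interval 0.37 to 0.86, adjusted p = 0.00247 in limma). The genotypes differed by −0.15 on HFD (95% interval −0.42 to 0.12, adjusted p = 0.434 in limma) and by 0.11 on NCD (95% interval −0.21 to 0.42, adjusted p = 0.919 in limma), a difference that was 0.48 on the TPM scale and −0.13 without mice 182 and 183. The macrophage markers given for Rbp4 were higher on HFD in the same mice, and their part in the rise of Dhrs3 was not tested.

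In liver Dhrs3 moved the other way in WT mice, by less. It was at 61.7, 59.5, 58.2 and 55.2 FPKM on NCD and 53.2, 48.8, 51.6, 48.99 and 48.2 FPKM on HFD, with no overlap. The mean fell from 58.7 ± 2.7 FPKM (SD, n = 4) to 50.2 ± 2.14 FPKM (SD, n = 5), a log2 change of −0.22 (SE 0.05, 95% interval −0.34 to −0.11, adjusted p = 0.0119 in limma). MlklAdi-KO mice were at 54.8, 59.9, 56.6 and 56.2 FPKM on NCD and 54.9, 51.5, 48.8, 58.6 and 56.2 FPKM on HFD, which overlapped, with a difference of −0.08 (95% interval −0.22 to 0.07, adjusted p = 0.447 in limma). The interaction was 0.15 (adjusted p = 0.89 in limma), so the diet change was not shown to differ between the genotypes.

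**Figure D4:**
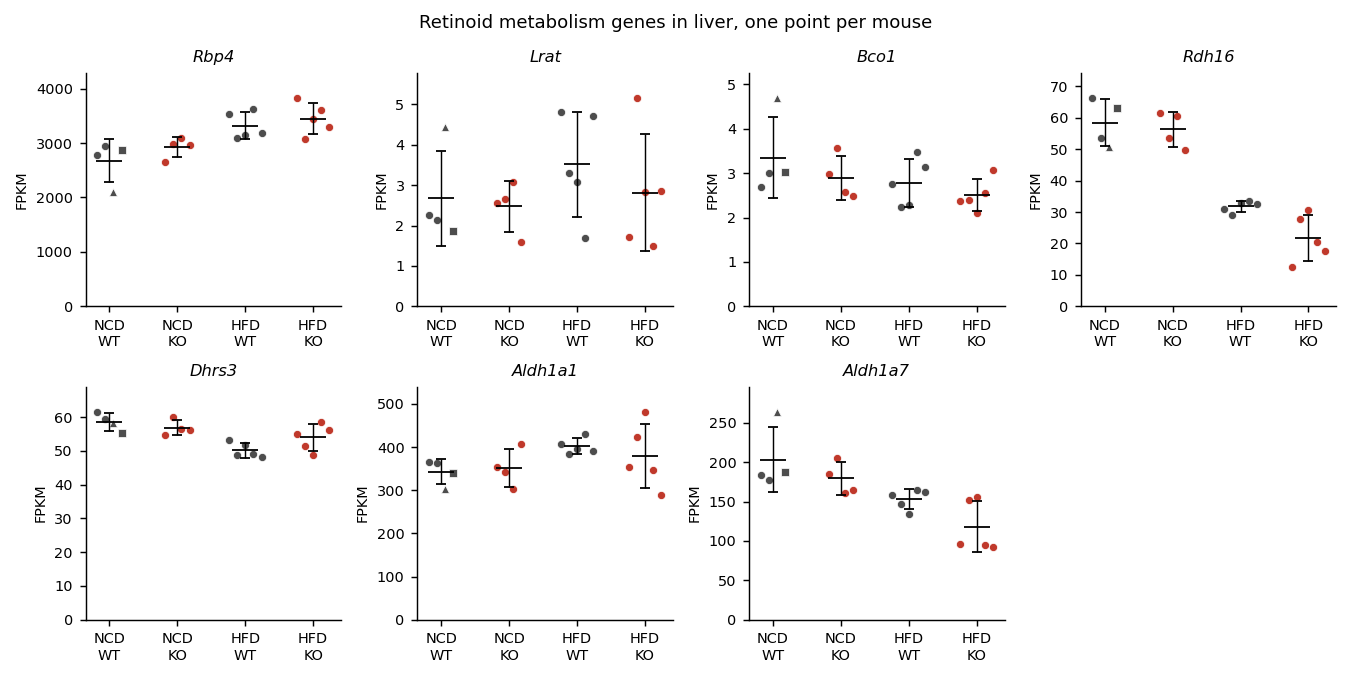
FPKM in liver of the 7 genes tested there, 1 point per mouse and a bar with the mean ± SD, for the 4 groups of genotype and diet. Triangles mark mouse 182 and squares mouse 183 among the NCD WT mice. Rdh16 is below every NCD mouse in all HFD mice.

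Aldh1a1, the retinaldehyde dehydrogenase with the highest level in liver, was at 365, 363, 303 and 340 FPKM in NCD WT and 408, 385, 396, 431 and 391 FPKM in HFD WT liver, with no overlap. The mean rose from 343 ± 28.9 FPKM (SD, n = 4) to 402 ± 18.2 FPKM (SD, n = 5), a log2 change of 0.23 (95% interval 0.08 to 0.39, adjusted p = 0.0353 in limma). This small change was near the threshold, and the adjusted p in limma was 0.0725 without mouse 154, 0.0503 without 155, 0.0635 without 161, 0.0782 without 162, 0.0589 without 164 and 0.0775 without 183, and it was 0.0765 without the filter and 0.166 with all 4 liver groups in the fit. MlklAdi-KO liver was at 353, 343, 303 and 407 FPKM on NCD and 354, 424, 482, 347 and 289 FPKM on HFD, with a difference of 0.09 (95% interval −0.23 to 0.42, adjusted p = 0.687 in limma). The HFD MlklAdi-KO mice spread over a wider range than the HFD WT mice, and their mean of 379 ± 75.0 FPKM (SD, n = 5) differed from that of WT mice by −0.11 (95% interval −0.37 to 0.16, adjusted p = 0.77 in limma).

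In visWAT Aldh1a1 was at 38.8, 32.0, 29.5 and 33.5 FPKM in NCD WT and 29.6, 24.9, 25.4, 31.9 and 23.9 FPKM in HFD WT mice, and at 36.7, 43.0, 34.1 and 41.2 FPKM in NCD MlklAdi-KO and 32.8, 28.6, 19.5, 38.9 and 34.7 FPKM in HFD MlklAdi-KO mice. The groups overlapped in each comparison. In WT mice the diet difference was −0.29 (95% interval −0.55 to −0.04, adjusted p = 0.0662 in limma). It passed in edgeR (adjusted p = 0.0357) and DESeq2 (adjusted p = 0.0165), and in limma without mouse 162 (−0.35, adjusted p = 0.0409) or mouse 182 (−0.35, adjusted p = 0.0364) or both 182 and 183 (−0.37, adjusted p = 0.0423). On the TPM scale it was 0.17, and on that scale without mice 182 and 183 it was −0.25 (adjusted p = 0.214 in limma). The direction thus turned with the scaling when all mice were in the fit, and not without mice 182 and 183. In MlklAdi-KO mice it was −0.35 (95% interval −0.75 to 0.06, adjusted p = 0.143 in limma). The genotypes differed by 0.15 on HFD (95% interval −0.22 to 0.52, adjusted p = 0.569 in limma) and by 0.21 on NCD (adjusted p = 0.916 in limma).

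Aldh1a7, the relative of Aldh1a1, fell with HFD in liver. It was at 184, 177, 264 and 187 FPKM in NCD WT and 158, 147, 134, 165 and 162 FPKM in HFD WT mice, and at 185, 206, 161 and 165 FPKM in NCD MlklAdi-KO and 96.3, 152, 156, 94.9 and 92.4 FPKM in HFD MlklAdi-KO mice. In both genotypes every HFD mouse was below every NCD mouse, and mouse 182 was the highest. The mean fell from 203 ± 40.9 FPKM (SD, n = 4) to 153 ± 12.5 FPKM (SD, n = 5) in WT mice, a log2 change of −0.39 (95% interval −0.66 to −0.12, adjusted p = 0.042 in limma). In MlklAdi-KO mice it fell from 179 ± 20.5 FPKM (SD, n = 4) to 118 ± 32.4 FPKM (SD, n = 5), a change of −0.63 (95% interval −1.03 to −0.23, adjusted p = 0.0319 in limma).

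Both falls of Aldh1a7 in liver were near the threshold. On the TPM scale the adjusted p was 0.114 in WT and 0.0504 in MlklAdi-KO mice in limma, and without the filter it was 0.0872 and 0.0749. With all 4 liver groups in the fit it was 0.0894 in WT mice. In WT mice it was 0.0687 without mouse 154, 0.0817 without 155, 0.0924 without 161, 0.0573 without 162, 0.0627 without 164, 0.0547 without 165 and 0.0619 without 183. In MlklAdi-KO mice it was 0.0656 without mouse 151, 0.0699 without 156, 0.0652 without 157, 0.0751 without 166, 0.0771 without 179, 0.0525 without 197 and 0.0562 without 199. On HFD the genotypes differed by −0.41 (95% interval −0.76 to −0.06), with an unadjusted p of 0.0266 and an adjusted p of 0.34 in limma, and on NCD by −0.17 (adjusted p = 0.996 in limma). HFD MlklAdi-KO mice 151, 156 and 157, the lowest for Aldh1a7 in liver, were also the lowest for Rdh16.

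In visWAT Aldh1a7 was at 48.3, 78.1, 244 and 40.6 FPKM in NCD WT mice, where mouse 182 was far above the rest, and at 48.0, 49.3, 41.1, 54.8 and 56.7 FPKM in HFD WT mice. MlklAdi-KO mice were at 63.0, 58.4, 53.5 and 55.2 FPKM on NCD and 32.4, 52.3, 61.6, 40.3 and 73.2 FPKM on HFD. The groups overlapped in all comparisons. The WT diet difference of −0.65 (adjusted p = 0.285 in limma) came to −0.11 without mouse 182 (adjusted p = 0.699 in limma). Without mice 182 and 183 it was −0.30 (adjusted p = 0.215 in limma). DESeq2 with all mice gave an adjusted p of 0.0355. The genotypes differed by 0.01 on HFD (95% interval −0.44 to 0.45, adjusted p = 0.988 in limma) and by −0.44 on NCD (95% interval −1.59 to 0.70), which came to 0.10 without mouse 182 and −0.10 without mice 182 and 183.

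Aldh1a2 and Aldh1a3, which were higher in visWAT than in liver but below Aldh1a1 in visWAT, were lowest in NCD WT mice. Aldh1a2 was at 3.86, 2.43, 2.69 and 3.29 FPKM in NCD WT, 5.23, 5.99, 4.98 and 6.14 FPKM in NCD MlklAdi-KO, 5.62, 6.85, 5.24, 7.34 and 4.43 FPKM in HFD WT, and 7.10, 6.52, 6.40, 5.14 and 6.64 FPKM in HFD MlklAdi-KO mice. Aldh1a3 was at 4.57, 3.61, 2.75 and 2.40 FPKM in NCD WT, 5.58, 4.67, 5.63 and 5.78 FPKM in NCD MlklAdi-KO, 9.90, 6.72, 8.46, 7.17 and 5.92 FPKM in HFD WT, and 9.09, 6.63, 6.75, 5.81 and 5.41 FPKM in HFD MlklAdi-KO mice. For both genes the NCD WT mice overlapped with no other group, and the other groups overlapped among themselves, except that Aldh1a3 in HFD WT mice lay wholly above NCD MlklAdi-KO mice.

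In WT mice HFD went with a rise of Aldh1a2 from 3.07 ± 0.641 FPKM (SD, n = 4) to 5.9 ± 1.19 FPKM (SD, n = 5), a log2 change of 0.76 (SE 0.15, 95% interval 0.43 to 1.09, adjusted p = 0.00312 in limma). Aldh1a3 rose from 3.33 ± 0.969 FPKM (SD, n = 4) to 7.63 ± 1.57 FPKM (SD, n = 5), a change of 1.003 (SE 0.17, 95% interval 0.62 to 1.39, adjusted p = 0.00151 in limma). Without mice 182 and 183 the changes were 0.74 for Aldh1a2 (adjusted p = 0.0135 in limma) and 0.75 for Aldh1a3 (adjusted p = 0.00786 in limma). In MlklAdi-KO mice the diet differences were 0.16 for Aldh1a2 (95% interval −0.05 to 0.36, adjusted p = 0.184 in limma, and 0.22 with 0.0348 without mouse 156) and 0.26 for Aldh1a3 (95% interval −0.03 to 0.54, adjusted p = 0.127 in limma).

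On NCD, MlklAdi-KO minus WT was 0.71 for Aldh1a2 (SE 0.12, 95% interval 0.43 to 0.98) and 0.59 for Aldh1a3 (SE 0.15, 95% interval 0.24 to 0.94). The unadjusted p was 0.00034 and 0.00452, but the adjusted p was 0.916 in limma for both. In this comparison 0 of 14063 genes passed, and 528 had an unadjusted p under 0.05. DESeq2 gave Aldh1a2 an adjusted p of 0.0144 and Aldh1a3 one of 0.303. The groups of 2.46% of all genes tested did not overlap in this comparison. Without mice 182 and 183 the difference was 0.69 for Aldh1a2 and 0.34 for Aldh1a3 (adjusted p of 0.9997 in limma for both). On HFD the genotype differences were 0.10 for Aldh1a2 (95% interval −0.16 to 0.37, adjusted p = 0.593 in limma) and −0.16 for Aldh1a3 (95% interval −0.48 to 0.17, adjusted p = 0.505 in limma). The interactions were −0.60 for Aldh1a2 (95% interval −0.98 to −0.22, unadjusted p = 0.00391, adjusted p = 0.321 in limma) and −0.75 for Aldh1a3 (95% interval −1.22 to −0.28, unadjusted p = 0.00386, adjusted p = 0.319 in limma). After adjustment over all genes, the diet responses of the genotypes were therefore not shown to differ. The diet and NCD genotype comparisons share the NCD WT mice, among them mice 182 and 183.

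The sum of 6 adipose progenitor markers (Dpp4, Pi16, Pdgfra, Cd55, Ly6a and Dcn), all detected in each visWAT group, was 192 to 251 FPKM in NCD WT, 244 to 284 FPKM in NCD MlklAdi-KO, 329 to 401 FPKM in HFD WT and 262 to 354 FPKM in HFD MlklAdi-KO mice. Like Aldh1a2 and Aldh1a3, it was higher in every HFD WT mouse than in every NCD WT mouse, as were the macrophage markers given for Rbp4. The sum of 7 mesothelium markers overlapped between the diets in WT mice, at 30.9 to 119 FPKM on NCD and 39.4 to 101 FPKM on HFD. That of 5 endothelial markers did so too, at 75.9 to 166 FPKM and 86.2 to 109 FPKM. The part of these in the values of Aldh1a2 and Aldh1a3 was not tested.

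**Figure D5:**
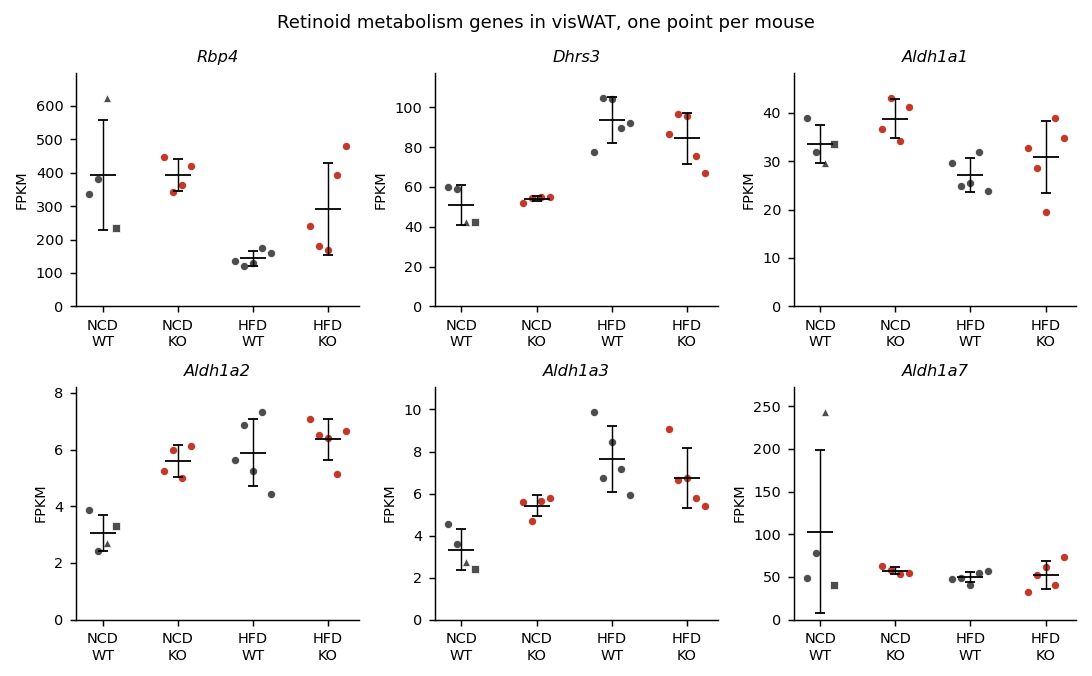
FPKM in visWAT of the 6 genes tested there, 1 point per mouse and a bar with the mean ± SD, for the 4 groups of genotype and diet. Triangles mark mouse 182 and squares mouse 183 among the NCD WT mice. NCD WT mice are the lowest group for Aldh1a2 and Aldh1a3, Dhrs3 is higher on HFD in both genotypes, and Rbp4 of HFD MlklAdi-KO mice spans from 168 to 480 FPKM.

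A further 38 genes of the pathway were read beside these, in 6 lists: vitamin A transport and uptake (4 genes), cellular retinoid binding proteins (5), retinol and retinaldehyde oxidoreductases (17), retinyl ester and carotenoid handling (3), retinoic acid clearance (3) and nuclear retinoid receptors (6). In visWAT of WT mice 4 of the 24 genes tested rose with HFD and 6 fell, with a median change of −0.24 against a median of −0.01 over all genes, of which 21.9% rose and 15.8% fell. Dhrs9, a retinol dehydrogenase, rose from 0.215 to 4.59 FPKM (log2 change 2.18) and Rara, a retinoic acid receptor, from 3.52 to 4.94 FPKM (0.40). Lipe, the hormone-sensitive lipase, fell from 275 to 153 FPKM (−0.83), Dgat1, an acyltransferase, from 89.1 to 50.9 FPKM (−0.75) and Rxrg, a retinoid X receptor, from 7.10 to 4.25 FPKM (−0.62). On the TPM scale these 3 falls had an adjusted p of 0.451, 0.553 and 0.512 in limma, and without mice 182 and 183 on the FPKM scale one of 0.000422, 0.00268 and 0.000397. None of the 6 falls passed on the TPM scale with all mice, where 3911 of all genes rose and 226 fell. Without mice 182 and 183 that scale gave 4783 rises and 2164 falls over all genes.

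In visWAT of MlklAdi-KO mice 3 of the 24 rose and 3 fell with HFD, with a median of −0.03, against 43.7% of all genes called. Dhrs9 rose from 0.317 to 3.19 FPKM (1.44), Adh4, an alcohol dehydrogenase, from 0.260 to 1.03 FPKM (0.68) and Rxrb from 10.5 to 12.3 FPKM (0.21). Rxra fell from 30.8 to 20.7 FPKM (−0.56) and Rdh10, a retinol dehydrogenase, from 3.59 to 2.71 FPKM (−0.31). Between the genotypes 0 of 23 passed in limma on either diet, with 9 genes at an unadjusted p under 0.05 on HFD and 1 on NCD, 0 in edgeR, and 2 and 0 in DESeq2. The pair that DESeq2 called on HFD, named after its values were seen, was Rarg, higher by 0.40 (adjusted p = 0.004), and Rbp7, an adipose retinol binding protein, higher by 0.96 (adjusted p = 0.0463), and limma gave these 0.35 (adjusted p = 0.194) and 0.82 (adjusted p = 0.221).

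In liver of WT mice 4 of 28 rose with HFD and 5 fell, with a median of −0.06, where 13.2% of all genes rose and 12.1% fell. Lipe rose from 2.44 to 5.80 FPKM (1.0004), Adh7 from 8.09 to 15.7 FPKM (0.91) and Rxrg from 2.63 to 4.49 FPKM (0.59). Rdh11, a retinal reductase, fell from 54.2 to 9.11 FPKM (−2.48), Dhrs9 from 1.90 to 0.230 FPKM (−1.15) and Rdh16f2 from 81.3 to 43.8 FPKM (−0.89). In MlklAdi-KO liver 3 of 29 rose and 5 fell, with a median of −0.07, where 22.2% of all genes were called. Lipe changed by 0.96, Rdh5 by 0.60 (3.86 to 6.37 FPKM), Adh7 by 0.43 (adjusted p = 0.0192 in limma, 0.0501 without mouse 166 and 0.0546 without mouse 199), Rdh11 by −2.33 (47.0 to 8.89 FPKM), Dhrs9 by −1.40 and Adh4 by −0.51 (124 to 87.8 FPKM). Dhrs9 thus rose with HFD in visWAT and fell in liver in both genotypes. Between the genotypes 0 of 28 passed in limma on either diet, with 5 genes unadjusted on HFD and 1 on NCD and 0 in edgeR and DESeq2. The interactions passed for 0 of 24 genes in visWAT and 0 of 28 in liver, with 2 genes unadjusted in each and 0 in edgeR and DESeq2.

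Between the tissues 27 of the 29 pathway genes tested differed, 6 higher and 21 lower in visWAT, against 87% of all genes, 42.5% higher and 44.5% lower. Rbp7 was at 55.4 FPKM in visWAT against 0.13 FPKM in liver, Lipe at 231 against 4.36 FPKM, and Dgat1 was higher by 2.67 on the log2 scale. Ttr, whose product carries RBP4 in plasma, was at 7.18 FPKM in visWAT against 5631 FPKM in liver, Rdh7 at 0.922 against 865 FPKM and Adh4 at 0.606 against 96.7 FPKM. On the TPM scale Rdh14, Scarb1, Rara and Rxrb, all lower in visWAT here, were higher by 0.41, 0.21, 0.25 and 0.77.

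The genes most alike to each of the 9 were named by Pearson's r of log2(FPKM + 1) over the 18 libraries of a tissue, which share diet and genotype groups, as a description without a test. Among 12067 genes in visWAT these were Myl1 (0.98) and Lap3 (0.97) for Rbp4, Gsdmd (0.99) and Mmp11 (0.98) for Dhrs3, Atp6v0e2 (0.88) and Azin2 (0.87) for Aldh1a1, Emilin2 (0.84) and B3gnt9 (0.84) for Aldh1a2, Fam124a (0.91) for Aldh1a3, and Lactb2 (0.96) and Me1 (0.96) for Aldh1a7. Among 11356 genes in liver they were Phyh (0.97) and Acsm1 (0.96) for Rbp4, Fcgr3 (0.83) and C1qb (0.82) for Lrat, Mpv17l2 (0.79) and Ctsl (0.78) for Bco1, Sntb1 (0.96) and Aqp8 (0.96) for Rdh16, Rplp0 (0.88) and Rpl4 (0.87) for Dhrs3, Hsd17b4 (0.90) and Pla2g6 (0.86) for Aldh1a1, and Tubb2a (0.94) and Denn2b (0.94) for Aldh1a7. Fcgr3 and C1qb, the genes most like Lrat in liver, are genes of macrophages, whose marker sum was 26.8 to 111.9 FPKM in NCD WT, 31.4 to 50.3 FPKM in NCD MlklAdi-KO, 31.7 to 48.9 FPKM in HFD WT and 22.2 to 91.3 FPKM in HFD MlklAdi-KO liver.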

How the data were processed

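RNA-seq of visWAT and liver was analysed for 18 mice, 36 libraries. Per the paper's methods, polyadenylated RNA was sequenced as 150 bp paired-end reads, trimmed with fastp, mapped with HISAT2 to mm39 and counted per gene, with featureCounts 1.5.0-p3 named in the submitters' processing notes. The annotation release and the handling of reads that fit several genes are not given in the sources used here. The deposited table holds FPKM for every gene and library, with gene lengths. Read counts were deposited by the authors for the genes in each of their comparison tables. Fold changes and p-values of the authors' own comparisons in these tables were not used, nor were 72 further columns of values per sample.

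FPKM were turned back into reads with the deposited counts, and 100% of values came out whole within 0.01 reads. The FPKM already contain a scaling between libraries, since the library size they imply, divided by the reads counted, was 1.01 to 1.40 for visWAT and 0.737 to 0.812 for liver. Reads on genes numbered 20875463 to 30322171 per library, so that genes under 0.5 FPKM rest on few reads. Among 64 pairs of replicates, no pair agreed within counting noise (lowest chi-square per gene 9.82).

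The test was limma 3.58.1 (R 4.3.3) with an empirical Bayes trend on log2(FPKM + 1), the groups compared in each fit, over all genes with a mean of at least 0.5 FPKM, and Benjamini-Hochberg adjustment with a threshold of 0.05. The interaction used the 18 mice of a tissue, and the tissue comparison all 36 libraries. The fits were repeated with a pseudocount of 0.1, without the filter, at a mean of at least 1 FPKM, on the TPM scale, by edgeR 4.0.16 and DESeq2 1.42.0 on the recovered reads, with all 4 groups of a tissue in the fit, with the mouse as a block, leaving out each mouse, and leaving out mice 182 and 183. Leaving out both on the TPM scale was added after seeing the data. The scripts were tested on simulated data. Both tissues came from the same mice, and the correlation of the deviations of a mouse's libraries from their group means was −0.05 to 0.22, with a median of 0.028.

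The 9 genes, the pathway lists and the marker lists were chosen with earlier results of these data known. Named besides the 9 genes were Mlkl, up to 3 called rises and 3 called falls among the other pathway genes in each comparison, where a group mean reached 1 FPKM, and the 2 genes most alike to each of the 9 in a tissue. Some genes that this rule names are not reported here. P-values set a difference against the spread between libraries within groups. In the tissue comparison the visWAT and liver libraries of a mouse were fitted as separate, except in the fit with the mouse as a block.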

Additional observations from a re-analysis of the deposited data

Results flagged for a closer look

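For each of the 9 genes in each of the 8 groups, 72 sets in all, the highest and the lowest mouse were checked against the others with Dixon's test at the 95% level. Of these, 10 sets held a mouse that stood apart, and chance flags about 1 in 20.

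In liver of NCD WT mice, mouse 182 was the highest for Aldh1a7 (264 FPKM), Lrat (4.43 FPKM) and Bco1 (4.69 FPKM). The visWAT library of this mouse had Mlkl at the MlklAdi-KO level against its label, and its liver had the highest macrophage marker sum of its group, 111.9 FPKM.

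In visWAT of HFD MlklAdi-KO mice, mouse 156 was the highest for Lrat (0.127 FPKM, 20 reads) and Rdh16 (0.36 FPKM, 66 reads), genes of the liver, and this library held 460 FPKM of Alb. Rdh16 also stood apart in visWAT of HFD WT mouse 154 (0.583 FPKM, 110 reads) and of NCD MlklAdi-KO mouse 179 (1.09 FPKM, 208 reads), where Alb was at 4.01 and 8.25 FPKM. The sum of 6 epididymis markers was the highest of its group in both, at 1.10 FPKM in mouse 154 and 13.2 FPKM in mouse 179. In mouse 156 it was 0.0521 FPKM. Bco1 was at 0.27 FPKM (21 reads) in visWAT of NCD WT mouse 183, the library with the most seminal vesicle RNA. The part of these in the values was not tested.

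Dhrs3 was at 52.1 FPKM in visWAT of NCD MlklAdi-KO mouse 166, below the other mice of a tight group (54.6 to 55.1 FPKM). Aldh1a2 was at 0.0254 FPKM, 1 read, in liver of HFD MlklAdi-KO mouse 156.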

How the results depend on the processing

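Depth limits the genes below 0.5 FPKM, and 4 or 5 mice per group limit the rest. The rise of Dhrs3 in visWAT of both genotypes, of Aldh1a2 and Aldh1a3 in visWAT of WT mice, and the fall of Rdh16 in liver of both genotypes passed under every alternative run, and the fall of Rbp4 in visWAT of WT mice under all but the TPM scale. For single genes, leaving out 1 mouse kept direction and side of the threshold in 814 results, lost the call in 20, gained it in 5 and reversed the direction in 25, and the other alternatives did so in 529, 8, 12 and 10.

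With the mouse as a block, the tissue comparison gave 12508 genes against 12752, and no call of the 9 genes changed. Between groups of mice, no pairing exists.

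Counts of all genes called moved as follows, and the cause was not tested. visWAT genotype on HFD gave 3, with DESeq2 161 and with all 4 groups in the fit 9 (2 higher and 1 lower, on the TPM scale 2 and 2). visWAT genotype on NCD gave 0, without a filter 2, with DESeq2 8, with all 4 groups 1, and without mice 182 and 183 on either scale 3. DESeq2 called 1 of the 9 genes in either. Liver genotype on HFD gave 26, without a filter 7 and with DESeq2 262 (17 higher and 9 lower, on the TPM scale 12 and 15). Liver genotype on NCD gave 1, without a filter 3, with DESeq2 21 and with all 4 groups 3. The interaction gave 0 in visWAT, with DESeq2 21, and 2 in liver, at a mean of at least 1 FPKM 4, with edgeR 1 and with DESeq2 63. Between tissues 20456 genes passed without a filter. Without a filter, diet called 2 of the 9 genes in WT liver and 1 in MlklAdi-KO liver.

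Directions of uncalled differences turned for Aldh1a7 between genotypes in visWAT on HFD (TPM scale −0.10), Rbp4 in visWAT on NCD (edgeR −0.03, DESeq2 −0.04), Dhrs3 in visWAT on NCD (without mice 182 and 183 −0.13, on the TPM scale −0.11), Aldh1a1 in visWAT of WT mice by diet (TPM scale 0.17), Rbp4 between genotypes in liver on HFD (TPM scale −0.02), and the visWAT interactions of Aldh1a1 (without mice 182 and 183 0.03) and Aldh1a7 (TPM scale −0.03, also without these mice).

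Leaving out 1 mouse gave 3 to 16 genes for visWAT genotype on HFD (highest without 153), 0 to 1 on NCD (without 182), 9 to 37 for liver genotype on HFD, 1 to 7 on NCD (without 182), 0 to 14 for the visWAT interaction (more without 153 and 165) and 2 to 5 for the liver interaction (without 165). Of the 9 genes, it gave 1 to 2 for diet in MlklAdi-KO visWAT, 2 to 4 in WT liver and 1 to 3 in MlklAdi-KO liver. Directions turned within −0.13 to 0.16 (visWAT on HFD) and −0.75 to 0.10 (visWAT on NCD) for Aldh1a7 by genotype, −0.14 to 0.33 for Rbp4 in visWAT on NCD, −0.04 to 0.10 for Aldh1a1, −0.15 to 0.15 for Lrat and −0.11 to 0.01 for Rdh16 in liver on NCD, −0.11 to 0.21 for Lrat by diet in MlklAdi-KO liver, and for the interactions −0.14 to 0.10 for Aldh1a1 and −0.09 to 0.76 for Aldh1a7 in visWAT, and −0.14 to 0.03 for Rbp4 and −0.10 to 0.12 for Bco1 in liver.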
